A study of Homo sapiens with 17 samples.

Results

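The 34 genes described here encode the glycolytic pathway and the cellular response to low oxygen, and they are examined at the chromatin level in Nthy-ORI cells, an immortalised line derived from normal human thyroid epithelium. They were chosen by name: 3 transporters of glucose or lactate, 17 glycolytic enzymes, 3 regulators of glycolytic flux, 6 genes of oxygen sensing and 5 hypoxia targets. They were set beside the other 20003 of 20037 protein-coding genes on chromosomes 1 to 22, X and Y. Binding was mapped by CUT&RUN, in which an antibody directs a nuclease to cut DNA around the protein it recognises. The antibodies were to TRβ, the thyroid hormone receptor, and to BRG1, ARID1A and PBRM1, which are subunits of the SWI/SNF chromatin remodelling complexes. Cells treated with 10 nM T3 (triiodothyronine, the active thyroid hormone) were compared with cells given the vehicle, NaOH. All cells had first been starved of hormone for 24 hours in charcoal-stripped medium. The sample labels give 6 hours of treatment, and the protocol text also names 24 hours. Nuclei of 500000 cells went into each reaction. Each of the 8 groups had 2 libraries and 1 deposited list of regions found in both, so there is no replicate check between conditions, and none of the differences between lists described here carries a test. A single line was used, and nothing in the labels says that the 2 libraries of a group came from separate cultures.

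Glycolysis converts glucose to pyruvate in a fixed chain of enzymes, and lactate dehydrogenase turns pyruvate to lactate when respiration is limited. In normal oxygen, prolyl hydroxylases of the EGLN family mark hypoxia-inducible factor for ubiquitination by VHL. In low oxygen its α subunits, encoded by HIF1A and EPAS1, pair with ARNT and activate transporters, glycolytic enzymes and genes such as VEGFA through a short core sequence, the hypoxia response element. Thyroid hormone is a classical regulator of metabolic rate, and its receptors bind the hexamer AGGTCA, often as a pair of direct repeats. BRG1 is the ATPase of SWI/SNF complexes. ARID1A belongs to the BAF form of the complex and PBRM1 to the PBAF form.

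The lists held 7208 TRβ regions with T3 and 1412 with vehicle, 55938 BRG1 regions with T3 and 64299 with vehicle, 41710 ARID1A regions with T3 and 49021 with vehicle, and 38140 PBRM1 regions with T3 and 9115 with vehicle. List length therefore differed between conditions for every protein, most for TRβ and PBRM1, and counts at a gene are read against that difference. Read depth is unknown, so an absent region is one not listed at this depth. Of 8 thyroid follicular marker genes, 7 had a BRG1 region with T3 within 25 kb, the exception being NKX2-1, which had none in either BRG1 list. So had 5 of 5 epithelial markers, 3 of 4 leukocyte, 2 of 2 endothelial and 2 of 2 fibroblast markers. Regions of binding do not measure expression, and these markers do not separate the cell types here.

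The promoter sequences of 8 member genes are shown because a TRβ region of the T3 list overlaps each of them. The region takes in all 300 bases for 5 of the 8, and 208 of HK2, 153 of LDHA and 66 of PDK1. They are the 8 with the highest signal value among the 11 members whose promoter window met a TRβ region, in that order. Each runs from 250 bases before to 50 bases after the gene start, 5′ to 3′ on the strand of the gene (RefSeq, GRCh38.p14). Capitals mark the hypoxia response core, spelled ACGTG in its first form and with a leading G, as GCGTG, in its second form, on either strand. On the opposite strand these forms appear as the reverse complements. The receptor hexamer AGGTCA, also searched on both strands, was in none of these 8.
ENO1, chr1:8878637-8878936, minus strand: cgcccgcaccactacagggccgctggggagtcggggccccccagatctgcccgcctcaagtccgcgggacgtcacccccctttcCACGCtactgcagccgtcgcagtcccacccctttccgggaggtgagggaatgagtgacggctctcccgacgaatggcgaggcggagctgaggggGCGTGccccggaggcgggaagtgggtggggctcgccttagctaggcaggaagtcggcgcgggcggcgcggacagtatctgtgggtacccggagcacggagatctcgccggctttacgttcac
BNIP3, chr10:131981874-131982173, minus strand: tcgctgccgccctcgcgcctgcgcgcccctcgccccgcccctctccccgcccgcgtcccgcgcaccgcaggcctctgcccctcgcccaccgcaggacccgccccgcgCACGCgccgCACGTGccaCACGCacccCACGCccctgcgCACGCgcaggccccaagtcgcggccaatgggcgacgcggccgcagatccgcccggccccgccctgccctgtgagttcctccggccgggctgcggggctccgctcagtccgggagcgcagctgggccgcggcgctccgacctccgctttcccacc
PKM, chr15:72231141-72231440, minus strand: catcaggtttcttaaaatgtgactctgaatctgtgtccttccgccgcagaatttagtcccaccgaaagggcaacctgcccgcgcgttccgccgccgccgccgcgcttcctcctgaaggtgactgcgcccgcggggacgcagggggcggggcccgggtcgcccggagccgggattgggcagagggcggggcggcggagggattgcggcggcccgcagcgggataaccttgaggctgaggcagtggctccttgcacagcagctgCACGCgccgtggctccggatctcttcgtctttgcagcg
PDK1, chr2:172555123-172555422, plus strand: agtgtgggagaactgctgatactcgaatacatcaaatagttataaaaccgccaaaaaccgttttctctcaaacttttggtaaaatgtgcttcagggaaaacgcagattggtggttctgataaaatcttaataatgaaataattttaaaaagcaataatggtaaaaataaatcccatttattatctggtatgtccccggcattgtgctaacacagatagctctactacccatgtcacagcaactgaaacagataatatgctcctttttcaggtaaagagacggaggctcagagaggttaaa
EPAS1, chr2:46297157-46297456, plus strand: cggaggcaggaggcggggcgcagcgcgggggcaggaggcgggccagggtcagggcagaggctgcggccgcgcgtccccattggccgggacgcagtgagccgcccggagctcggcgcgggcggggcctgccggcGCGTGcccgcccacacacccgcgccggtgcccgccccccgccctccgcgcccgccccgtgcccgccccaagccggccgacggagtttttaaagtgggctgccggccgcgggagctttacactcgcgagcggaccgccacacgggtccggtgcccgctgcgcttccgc
LDHA, chr11:18394313-18394612, plus strand: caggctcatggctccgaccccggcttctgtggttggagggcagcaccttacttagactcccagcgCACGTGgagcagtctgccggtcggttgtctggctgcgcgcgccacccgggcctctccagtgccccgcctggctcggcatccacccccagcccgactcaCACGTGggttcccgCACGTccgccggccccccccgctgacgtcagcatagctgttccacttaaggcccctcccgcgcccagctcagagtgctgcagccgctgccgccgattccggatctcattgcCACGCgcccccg
ARNT, chr1:150876550-150876849, minus strand: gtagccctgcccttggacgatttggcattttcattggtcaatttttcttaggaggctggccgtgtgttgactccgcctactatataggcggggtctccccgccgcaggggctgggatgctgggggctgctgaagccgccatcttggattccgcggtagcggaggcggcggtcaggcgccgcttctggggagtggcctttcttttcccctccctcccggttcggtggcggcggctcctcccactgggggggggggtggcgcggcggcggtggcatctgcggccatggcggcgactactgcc
HK2, chr2:74833877-74834176, plus strand: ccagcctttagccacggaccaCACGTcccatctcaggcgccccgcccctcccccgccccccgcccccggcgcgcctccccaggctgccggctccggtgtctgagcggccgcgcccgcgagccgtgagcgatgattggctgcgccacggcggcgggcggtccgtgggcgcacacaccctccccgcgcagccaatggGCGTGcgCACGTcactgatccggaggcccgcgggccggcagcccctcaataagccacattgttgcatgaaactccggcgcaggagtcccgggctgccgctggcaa
BNIP3 encodes a mitochondrial protein of mitophagy and cell death. Its promoter held 6 core matches, and LDHA, which encodes the A subunit of lactate dehydrogenase, also held 6. A palindromic CACGTG counts as 2 of these matches, 1 on each strand. The promoter of HK2, an inducible hexokinase, held 3 and that of the enolase gene ENO1 held 2. Of these, 4 of the 6 at LDHA and 2 of the 3 at HK2 lay wholly inside the TRβ region. PKM (pyruvate kinase) and EPAS1 (the hypoxia-inducible factor 2α subunit) had 1 match each, while PDK1 (pyruvate dehydrogenase kinase) and ARNT had 0.

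TRβ regions were listed with T3 at 23 of the 34 genes (67.6%), where 39.3% of other protein-coding genes had one. With vehicle the numbers were 6 of 34 (17.6%) and 11.1% of other genes. A gene counted if a region touched its RefSeq span or the 25 kb on either side. The members' windows had a median length of 75.9 kb against 74.1 kb at other genes, and a median of 1.5 neighbouring protein-coding genes against 2. A T3-only region, with no overlap in the vehicle list, lay at 22 members and at 37.6% of other genes. A shared region of the T3 list lay at 5 members and at 5.2% of other genes, and a vehicle-only region at 3 members and 6.8% of other genes. Of the 34 genes, 17 had TRβ regions with T3 and none with vehicle, 6 had both, and 0 had a vehicle region without one with T3. Of other genes, 30.9% had TRβ regions with T3 and none with vehicle, and 8.42% had both. The T3 list was the longer, with 7208 regions against 1412. The 11 genes with none in the T3 list were SLC2A3, LDHB, PFKM, ALDOC, GPI, PGK1, EGLN3, HIF1A, VHL, BNIP3L and ADM.

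**Figure D1:**
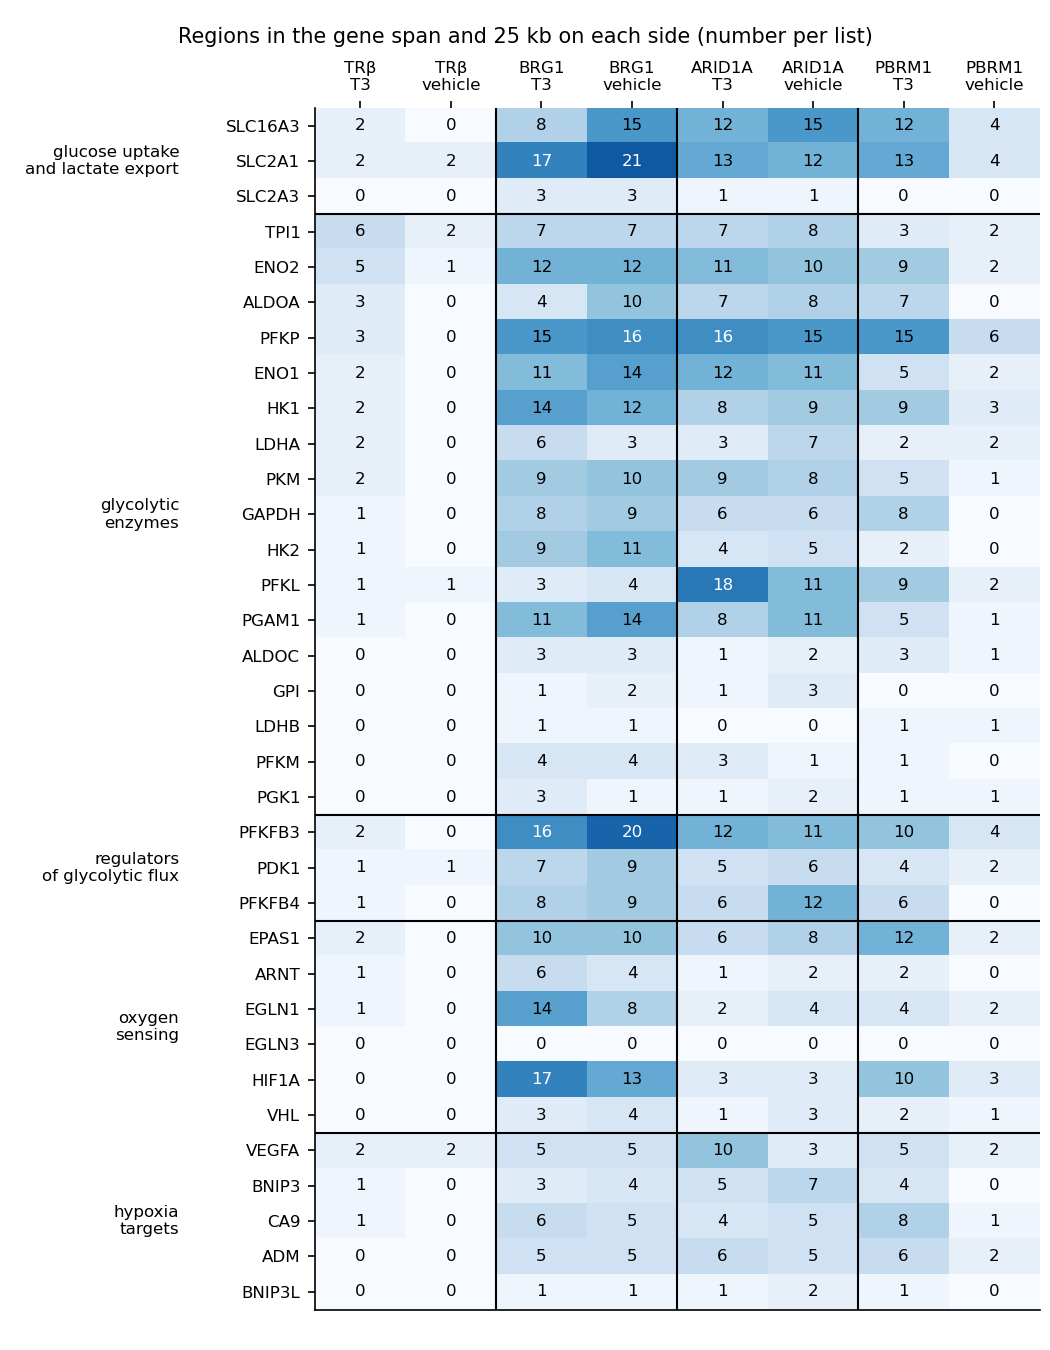
Number of listed regions in the span of each of the 34 genes and 25 kb on each side, for each protein with T3 and with vehicle (columns), grouped by role (rows). TRβ counts run up to 6 with T3 and 2 with vehicle, PBRM1 counts are higher with T3 at 28 of 34 genes, and BRG1 and ARID1A counts differ in either direction, for example BRG1 with 14 with T3 and 8 with vehicle at EGLN1 and 4 with T3 and 10 with vehicle at ALDOA.

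BRG1 was listed near most members in both conditions. With T3, 33 of 34 genes had a BRG1 region (79.7% of other genes), 32 an ARID1A region (76.0%) and 31 a PBRM1 region (78.0%). With vehicle the counts were 33 for BRG1 (82.7% of other genes), 32 for ARID1A (79.5%) and 23 for PBRM1 (43.9%). T3-only regions lay at 22 members for BRG1 (44.2% of other genes), 21 for ARID1A (54.8%) and 30 for PBRM1 (70.8%). Vehicle-only regions lay at 25 members for BRG1 (57.7% of other genes), 28 for ARID1A (63.1%) and 11 for PBRM1 (13.3%). Among genes that had a BRG1 region with T3, a TRβ region with T3 lay at 23 of 33 members (69.7%) and at 47.7% of other genes, a comparison added after the data were seen. Members carried a median of 6.5 BRG1 regions with T3, against 3 at other genes. Per 100 kb of window these medians were 7.62 and 3.0. Counting each region once, the member windows held 17.7 TRβ regions per 100 BRG1 regions with T3, and windows of other genes held 13.4.

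Among the transporters, SLC16A3 and SLC2A1 had TRβ regions and SLC2A3 had none. SLC16A3 encodes the lactate exporter MCT4. Its stronger T3 region, chr17:82230175-82231963, had a signal value of 18.7, the sum the authors gave for the 2 libraries, here 11.5 and 7.13. It lay 1.74 kb downstream of the gene start, ranked above 94.5% of the TRβ T3 list and was T3-only. The ARID1A T3 region at this place, chr17:82229424-82233613, had a signal value of 40.3 and ranked above 99.6% of its list. SLC2A1, the basal glucose transporter GLUT1, had 2 TRβ regions in each condition. A T3-only region, chr1:42924100-42924893, lay 33.98 kb from the start with a signal value of 9.62. The shared T3 region, chr1:42958672-42959041, covered the gene start with a signal value of 9.22, and it was 1 of 2 TRβ regions of the T3 list at member genes that overlapped all of the other 7 lists. The vehicle list held a region at chr1:42958363-42958812 that lay inside the gene and ended 56 bases short of the start, and a vehicle-only region at chr1:42940704-42941467, 17.4 kb into the gene, with a signal value of 13.1. SLC2A1 also had the most BRG1 regions of any member, 17 with T3 and 21 with vehicle, together with HIF1A for T3. As many or more with T3 were found at 2.16% of other genes. SLC2A3, the high-affinity transporter GLUT3, had 3 BRG1 regions in each condition and 0 PBRM1 regions.

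Glycolytic enzymes, 17 of the 34 members, had TRβ regions at 12 genes and 29 region-gene pairs with T3, against 3 genes and 4 pairs with vehicle. Their share of genes with T3, 70.6%, was close to the 67.6% of all members, and 39.3% of other genes had a region. Of the 29 pairs, 6 were at TPI1 and 5 at its neighbour ENO2, with 1 region counted at both. In the upper pathway, PFKL (the liver phosphofructokinase) had the highest TRβ signal value of any member, 26.0 with T3, from library values of 16.6 and 9.40. That region, chr21:44338142-44339557, lay 38.1 kb from the PFKL start and outside the gene, over the start of CFAP410. It was present in all 8 lists, with a TRβ signal value of 22.2 in the vehicle list. The hexokinase genes differed in placement against the 1 start per gene used here, and other starts were not examined. HK2 had a T3-only region over its start, chr2:74833969-74835022, with a signal value of 11.6, although its libraries stood at 3.13 and 8.52, the widest ratio (2.72) at any member. HK1 had T3-only regions 48.8 kb and 139 kb from its start, with signal values of 8.28 and 9.82. The nearer one lay inside the gene and overlapped the strongest BRG1 and ARID1A T3 regions of the HK1 window. PFKP, the platelet phosphofructokinase, had 3 T3-only regions inside the gene, 23.1 to 37.6 kb from the start, with signal values of 9.53, 9.42 and 10.2. ALDOA, the main aldolase, had 3 T3-only regions, of which chr16:30065493-30066287 at 1.21 kb from the start was the strongest at 11.7.

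The largest numbers of TRβ regions lay at TPI1 and ENO2. TPI1, encoding triosephosphate isomerase, had 6 with T3 and 2 with vehicle, and 0.935% of other genes had 6 or more with T3. The region chr12:6867209-6867700 covered the TPI1 start with a signal value of 9.30. The strongest, chr12:6851316-6853031 at 20.2, lay 14.5 kb upstream over the start of USP5 and was shared. A single vehicle region of 2445 bases, chr12:6871275-6873719, had a signal value of 34.6 and ranked above 98.9% of the TRβ vehicle list. The T3 list held 2 regions that overlapped it, chr12:6871625-6871866 at 8.28 and chr12:6872508-6873823 at 13.1, the second over the start of SPSB2. Because the TPI1 window held 4 other protein-coding genes, which gene such a region serves cannot be told apart. ENO2, the neuronal enolase, lies on the same stretch of chromosome 12 and had 5 TRβ regions with T3 and 1 with vehicle. The T3-only region chr12:6914261-6915077 covered its start with a signal value of 9.73, and chr12:6891025-6891519 fell into the windows of both TPI1 and ENO2. GAPDH, on the same chromosome arm, had 1 T3-only region 3.38 kb upstream, chr12:6531297-6531889, with a signal value of 11.1 and no remodeller region over it in either condition. PGAM1, the phosphoglycerate mutase, had a T3-only region 3.79 kb upstream with a signal value of 10.4.

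ENO1, PKM and LDHA, which act in the last steps, had TRβ over their own starts. ENO1, which encodes the ubiquitous enolase, had the strongest T3-only region of all members, chr1:8877905-8879638, with a signal value of 24.0 and library values of 10.5 and 13.5. PKM followed with chr15:72230160-72231752 at 16.1 and library values of 7.67 and 8.46. LDHA had chr11:18394460-18395772 at 13.9, with library values of 7.27 and 6.58, and a second T3-only region 1.29 kb into the gene at 12.2. All 3 start regions were absent from the TRβ vehicle list and overlapped BRG1, ARID1A and PBRM1 regions of the T3 lists. LDHB, the heart-type lactate dehydrogenase subunit, differed from LDHA in having 0 TRβ and 0 ARID1A regions in either condition and 1 BRG1 region in each. PGK1, PFKM, ALDOC and GPI also had no TRβ region. GPI, the glucose phosphate isomerase gene, was among the members with the fewest remodeller regions, with 1 BRG1 region with T3 and 2 with vehicle, and 0 PBRM1 regions.

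The regulators of flux each had TRβ with T3. Their windows were long, with a median of 219 kb against 74.1 kb at other genes. Per 100 kb they held a median of 0.863 TRβ T3 regions, against 1.07 over all members and 0 at other genes. PDK1, whose kinase product inhibits pyruvate dehydrogenase and so keeps pyruvate out of the mitochondrial oxidation route, had chr2:172555357-172556839 over its start with a signal value of 16.1, T3-only, and library values of 6.65 and 9.42. A vehicle-only region, chr2:172646942-172647368, lay 91.6 kb into the gene with a signal value of 9.83 and overlapped no other list. PFKFB4 had a T3-only region, chr3:48558073-48559199, at 12.1. It lay 1.27 kb upstream of the start used here, which is inside the RefSeq span, and so did the region. PFKFB3, which like PFKFB4 makes the activator of phosphofructokinase, had T3-only regions 77.5 kb and 198 kb from its start at 11.1 and 8.53. The first of these overlapped no remodeller region, although the PFKFB3 window held 16 BRG1 regions with T3 and 20 with vehicle.

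**Figure D2:**
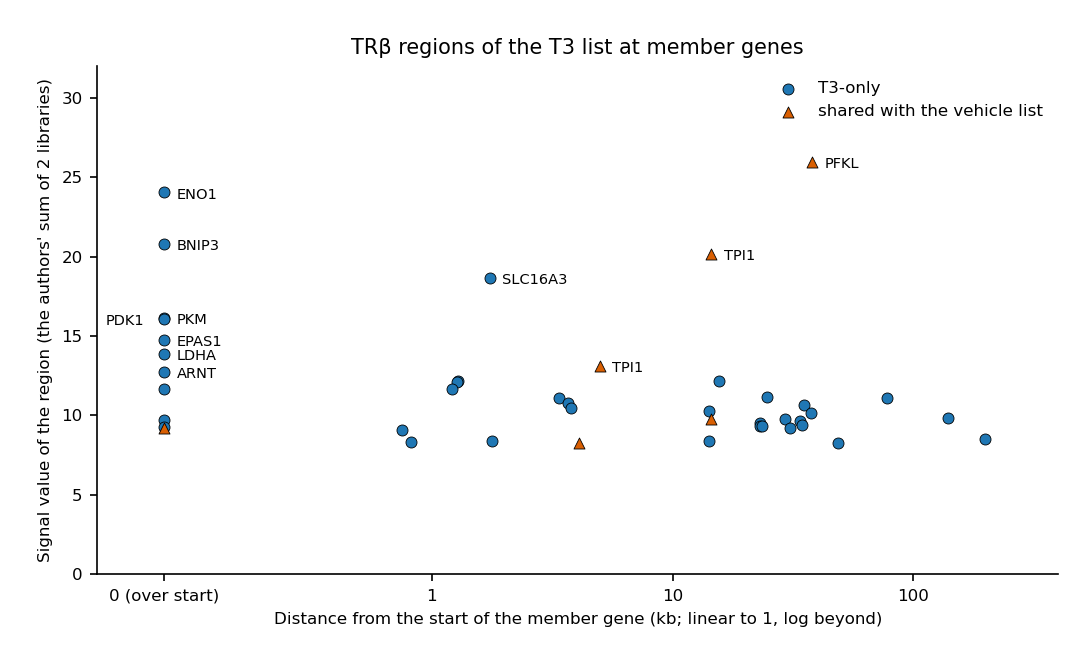
Signal value of each TRβ region of the T3 list at a member gene (the authors' sum of 2 libraries) against its distance from the start of that gene, with T3-only regions as circles and shared regions as triangles. The 43 region-gene pairs with a known start are drawn, 11 of them at 0 because the region covers the start, and the 2 VEGFA regions are not drawn. The highest values are 26.0 at PFKL, 24.0 at ENO1, 20.8 at BNIP3, 20.2 at TPI1 and 18.7 at SLC16A3.

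In oxygen sensing, the α subunit genes did not share a TRβ pattern. EPAS1 had a T3-only region over its start, chr2:46297115-46298317, at 14.8 with library values of 9.06 and 5.70, and a second one 35.2 kb into the gene at 10.7. HIF1A had no TRβ region in either list. It had 17 BRG1 regions with T3 and 13 with vehicle, where the members' medians were 6.5 and 7.5, and 10 PBRM1 regions with T3 and 3 with vehicle. Its 3 ARID1A regions in each condition were below the members' medians of 5.5 with T3 and 6 with vehicle. ARNT, the shared partner subunit, had a T3-only region over its start, chr1:150876157-150876890, at 12.8 with library values of 7.56 and 5.19. EGLN1, the main prolyl hydroxylase, had 1 T3-only region 0.922 kb from its start at 8.35. EGLN3 had 0 regions in all 8 lists, the only member for which that held. VHL had no TRβ region. Over the 6 genes, BRG1 region-gene pairs numbered 50 with T3 and 39 with vehicle (ratio 1.28), while ARID1A pairs numbered 13 with T3 and 20 with vehicle (ratio 0.65). EGLN1, with 14 BRG1 regions with T3 and 8 with vehicle, and HIF1A made up most of the BRG1 difference. Across other protein-coding genes the ratios of T3 to vehicle were 0.869 for BRG1 and 0.896 for ARID1A. The other roles gave BRG1 ratios of 0.718 (transporters) to 1.0 (hypoxia targets) and ARID1A ratios of 0.793 (regulators of flux) to 1.18 (hypoxia targets).

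Of the hypoxia targets, BNIP3 had the second highest T3-only signal value, 20.8, at chr10:131980911-131982527 over its start, with library values of 10.2 and 10.6. VEGFA, the angiogenic growth factor, had a shared region at chr6:43770353-43771259 with a signal value of 12.6 with T3. The overlapping vehicle region, chr6:43770457-43771935, had 19.2 in its own list. A weaker T3-only region, chr6:43769824-43770249 at 8.58, contained the first base of the VEGFA span, and a vehicle-only region, chr6:43772035-43773271, lay further into the gene at 11.7. CA9, a membrane carbonic anhydrase, had a T3-only region 15.7 kb away at 12.1, beside the start of CCDC107. ADM and BNIP3L had none. The ADM window nevertheless held a BRG1 region over its start in both lists, with signal values of 37.0 with T3 and 42.9 with vehicle, ranking above 97.9% and 98.3% of those lists. Both of these BRG1 regions also covered the start of SBF2.

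TRβ regions that covered a member's start all overlapped the 3 remodeller subunits, and such overlap was common at other promoters too. Of the 43 region-gene pairs with a known start, 11 covered it, 2 lay within 1 kb, 10 within 1 to 5 kb, 9 within 5 to 25 kb and 11 further away. The 11 start regions had a median signal value of 13.9, against 9.99 for the other 32. All 11 overlapped a BRG1, an ARID1A and a PBRM1 region of the T3 lists, as did 11 of the other 32. Signal value and overlap come from lists of the same cells and were not tested against each other. Of all 44 TRβ T3 regions at members, 15 (34.1%) lay over the start of some protein-coding gene, and 28.8% of the TRβ T3 regions at other genes did so.

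**Figure D3:**
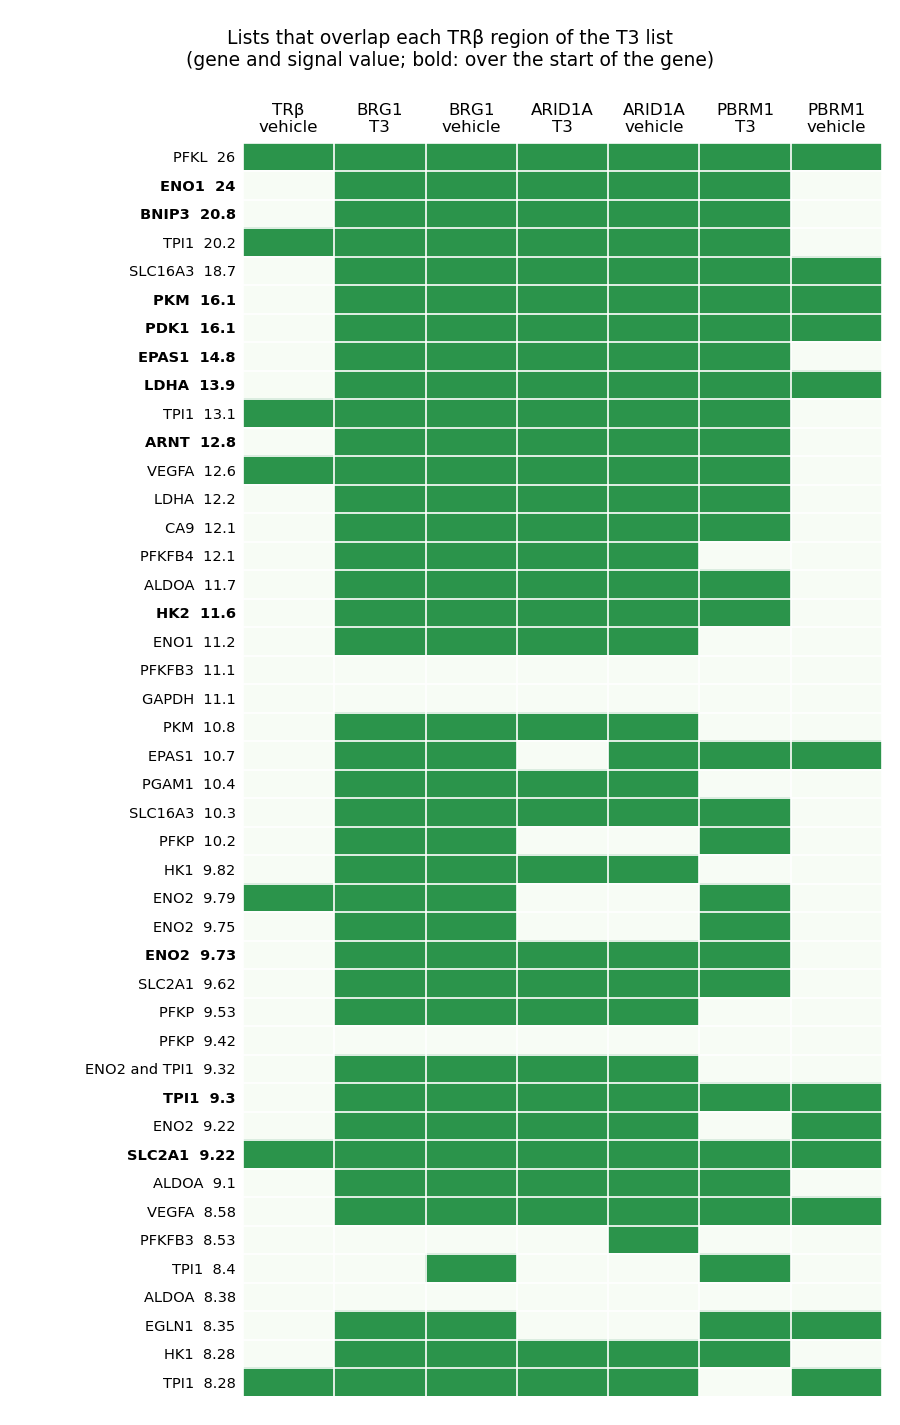
Each row is 1 of the 44 TRβ regions of the T3 list at member genes, labelled with the gene and the signal value and ordered by it. Filled cells mark overlap of at least 1 bp with a region of the list named above the column. BRG1 columns are filled for most rows in both conditions, 38 with T3 and 39 with vehicle, while PBRM1 is filled for 30 rows with T3 and 12 with vehicle.

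Remodeller overlap at these 44 regions was mostly present without hormone for BRG1 and ARID1A, and mostly listed with T3 for PBRM1. A BRG1 region with T3 overlapped 38 of 44 (86.4%, exact 95% interval 72.6 to 94.8%), and 72.8% of the 6298 TRβ T3 regions at other genes. This order turned with a reciprocal overlap of 50%, in which the overlap spans that share of both regions, to 20.5% at members against 25.5% at other genes. All 38 also overlapped a BRG1 vehicle region, and 0 overlapped BRG1 with T3 and not with vehicle. At other genes that share was 1.67%, so it was small there too. ARID1A with T3 overlapped 33 (75.0%, 59.7 to 86.8%), against 70.5% at other genes, and these 33 too overlapped ARID1A in the vehicle list. At other genes 8.54% of the TRβ T3 regions overlapped ARID1A with T3 and not with vehicle. PBRM1 with T3 overlapped 30 (68.2%, 52.4 to 81.4%), against 67.1%, and with the reciprocal rule 22.7% against 29.6%. Of those 30, 20 had no PBRM1 vehicle region, which is 45.5% of the 44 (30.4 to 61.2%), and the share at other genes was 43.6%, within that interval. All 3 remodeller subunits overlapped 24 of the 44 with T3 (54.5%), against 58.3%. No subunit in either condition overlapped 4 of 44 (9.09%), against 16.8%, and these were the regions at PFKFB3, GAPDH, PFKP and the third ALDOA region, chr16:30078468-30079553. Intervals cover counting error across regions and not the spread between cultures.

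Numbers of PBRM1 regions were higher with T3 than with vehicle at 28 of 34 members and lower at 0, and 69.5% of other genes had more and 1.41% fewer. The member windows held 184 PBRM1 region-gene pairs with T3 and 51 with vehicle, a ratio of 3.61, and the ratio was 4.22 at other genes. The widest gap was at EPAS1, with 12 with T3 and 2 with vehicle, and PFKP had the most in either condition, 15 with T3 and 6 with vehicle. HK2, PFKM, ARNT, BNIP3, BNIP3L, ALDOA, GAPDH and PFKFB4 had PBRM1 regions with T3 and 0 with vehicle. Such genes were common outside the members too, since 78.0% of other genes had a PBRM1 region with T3 and 43.9% with vehicle. For TRβ, 19 members had more regions with T3 and 0 had fewer, where 36.0% of other genes had more and 3.03% fewer. For BRG1, 7 members had more regions with T3 and 16 had fewer, where 19.8% of other genes had more and 42.3% fewer. For ARID1A, 10 had more and 19 fewer, where 25.7% of other genes had more and 40.9% fewer. The largest ARID1A gains with T3 were at PFKL, with 18 regions with T3 and 11 with vehicle, and at VEGFA, with 10 with T3 and 3 with vehicle. The more frequent direction for each protein is that of the lengths of the whole lists, and these ARID1A gains run against it.

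When any overlap counted, the share of regions listed in 1 condition alone was lower at members than at other genes for each list, with the value at other genes outside the members' interval for ARID1A in both lists and BRG1 with vehicle. The intervals treat regions as independent and are not a test. Many regions can lie in 1 window, such as 18 ARID1A T3 regions at PFKL, 11 of them T3-only. Of 202 ARID1A T3 regions at members, 35.6% were T3-only (exact 95% interval 29.0 to 42.7%), against 45.5% at other genes. Of 215 ARID1A vehicle regions, 33.0% were vehicle-only (26.8 to 39.7%), against 49.6%. For BRG1 the T3-only share was 19.4% of 248 (14.6 to 24.8%) against 22.7%, and the vehicle-only share 20.9% of 268 (16.2 to 26.3%) against 28.7%. TRβ regions with T3 were T3-only in 37 of 44 cases (84.1%, 69.9 to 93.4%), against 92.9%, and with vehicle vehicle-only in 3 of 9 (33.3%, 7.49 to 70.1%), against 65.3%. PBRM1 shares were 75.0% T3-only (68.1 to 81.1%) against 78.3%, and 21.6% vehicle-only (11.3 to 35.3%) against 23.6%. Both TRβ shares and the BRG1 vehicle-only share stayed lower at members under all 9 alternatives. For the other shares the order depended on the overlap rule or on the limit set on the IDR. The IDR is the irreproducible discovery rate between the 2 libraries. With a reciprocal overlap of 50%, the ARID1A T3-only share was 69.3% at members against 65.6% at other genes, the BRG1 T3-only share was 49.2% against 48.9%, and the ARID1A vehicle-only share was 71.2% against 70.1%. The PBRM1 shares under that rule were 86.4% T3-only against 86.3%, and 51.0% vehicle-only against 44.0%. With regions at an IDR of at most 0.01, the T3-only share was 18.7% against 18.4% for BRG1 and 91.7% against 89.5% for PBRM1. Member regions also ranked higher in their lists, with the median ARID1A T3 region above 64.7% of its list at members and above 51.0% at other genes, and whether this set the shares was not tested.

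**Figure D4:**
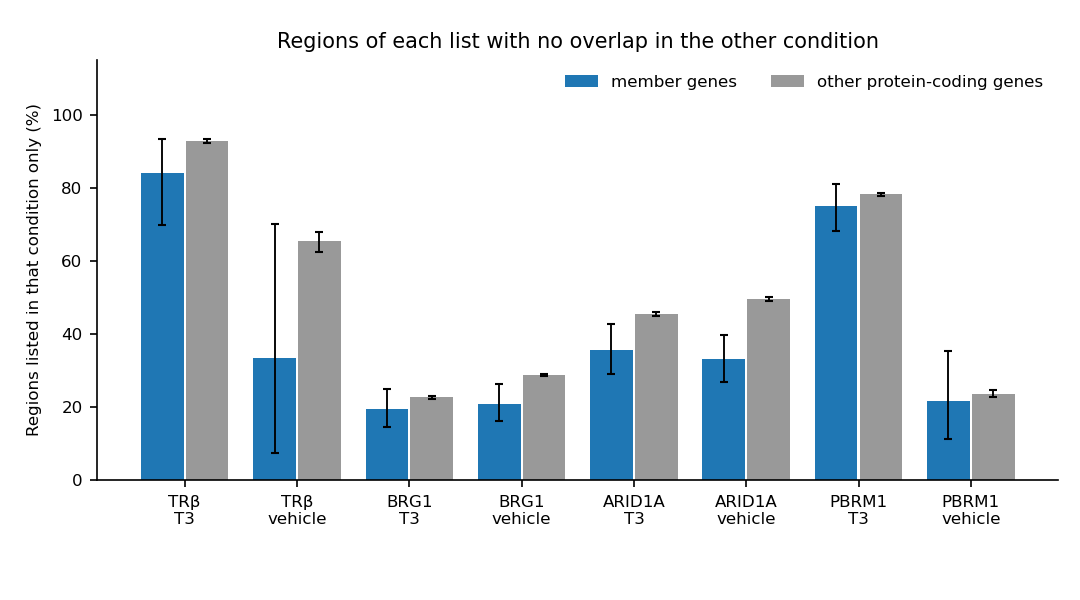
Percentage of the regions of each list that overlap no region of the same protein in the other condition, at member genes and at other protein-coding genes, with exact 95% binomial intervals as error bars. For ARID1A, member shares are 35.6% with T3 and 33.0% with vehicle, below the 45.5% and 49.6% at other genes, while PBRM1 shares differ by less than their intervals.

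Promoter windows gave a narrower view, since each spans 300 bases and belongs to 1 gene. For 30 members such a window was given, and SLC2A3, VHL, VEGFA and BNIP3L had none. A TRβ region with T3 overlapped 11 of 30 (36.7%), and 14.7% of 15830 windows of other genes. With vehicle TRβ overlapped 0 of 30 and 2.5% of other windows. BRG1 overlapped 24 with T3 (55.3% of other windows) and 25 with vehicle (60.2%). ARID1A overlapped 23 with T3 (47.8% of other windows) and 20 with vehicle (43.1%). PBRM1 overlapped 23 with T3 (54.6% of other windows) and 10 with vehicle (18.9%). Among windows with BRG1 in the T3 list, TRβ with T3 overlapped 11 of 24 members (45.8%) and 25.6% of other genes, again a comparison added after the data were seen. All 4 proteins overlapped 9 of 30 member windows with T3 and 12.2% of other windows. The remaining pair of promoter windows that TRβ overlapped, PDK1 and LDHA, had PBRM1 in the vehicle list and not in the T3 list within the 300 bases. At LDHA the PBRM1 T3 region began 0.344 kb after the start, at chr11:18394907-18396531, and was T3-only. PBRM1 with T3 and not with vehicle was found at 15 of 30 member windows and at 37.2% of others. EGLN3, GPI, ALDOC, CA9 and HK1 had no region of any protein over the window. For GPI the table's start lies inside the RefSeq span, and a BRG1 T3 region, chr19:34359229-34359798, covers the first base of that span.

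**Figure D5:**
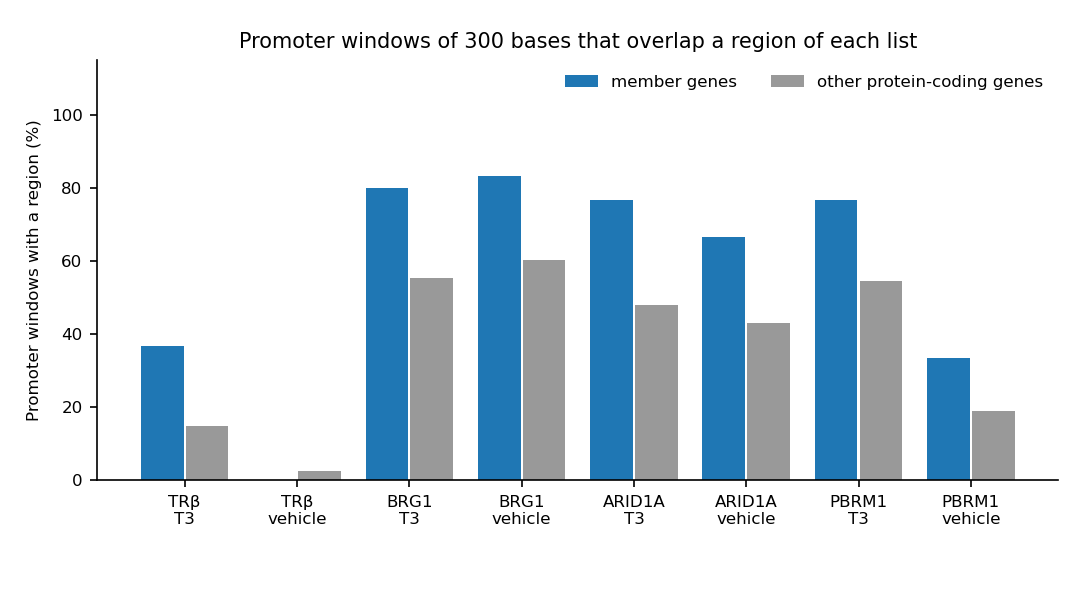
Percentage of promoter windows (250 bases before to 50 after the gene start) that overlap a region of each list, for 30 member genes and 15830 other protein-coding genes. Member bars are higher than the bars of other genes in each list but TRβ with vehicle, where the member bar is at 0.

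Hypoxia response cores were common in the promoter windows of members and of other genes. ACGTG on either strand was in 11 of 30 member windows (36.7%) and 23.7% of other windows, and GCGTG in 15 of 30 and 44.1%. At least 1 of these was in 21 members (70.0%) and 55.9% of other genes. Median GC content was 69.8% in member windows and 62.7% in others, and its part in the difference was not tested. AGGTCA was in 3 member windows (10.0%), those of TPI1, ALDOC and HK1, and in 11.7% of other windows. AGGTCA repeated directly with 4 bases between was in 0 member windows and in 1 of the others. ACGTG was in 4 of the 11 windows with TRβ and 7 of the 19 without. GCGTG was in 7 of the 11 and 8 of the 19, and at least 1 of the cores in 8 and 13. A match describes letters and is not a site of binding.

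Genes of the same pathways outside the member list gave a mixed picture. Among 13 tissue-restricted glycolytic isozymes, 8 had a TRβ region with T3 within 25 kb. Their signal values included 21.3 near PKLR (liver and red cell pyruvate kinase), 17.2 at ENO3 (muscle enolase), 16.3 at SLC2A4 (the insulin-regulated transporter GLUT4), 13.96 near PGAM2 and 13.9 near LDHC. The LDHC region is the LDHA start region, which lies in both windows. Among 19 genes of pyruvate entry and gluconeogenesis, 5 had one, led by MPC1 (a mitochondrial pyruvate carrier subunit) at 11.5, PDP1 at 11.4 and SLC16A1 at 10.6, followed by PCK1 at 10.1 and PC at 9.87. PDK2 had 2 TRβ regions with vehicle and 0 with T3. Of 27 other hypoxia regulators and targets, 14 had a TRβ region with T3, the strongest being a shared region near ANGPTL4 at 21.1. Others were near KDM4B at 17.6, EGLN2 at 16.97, MXI1 at 16.7 and GYS1 at 16.4, with the EGLN2 and GYS1 regions shared. These counts are 61.5% of the isozymes, 26.3% of the pyruvate and gluconeogenesis genes and 51.9% of the hypoxia genes, and 39.3% of protein-coding genes outside the members had such a region.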

How the data were processed

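The series has 17 CUT&RUN libraries, 2 in each of 8 groups (4 antibodies, with T3 or vehicle) and 1 with IgG, which was not used here. Tools named in the submitters' processing notes are Bowtie2, CASAVA 1.7, MACS2 and Trim Galore, with hg38 as the build and no parameters. Each group has 1 deposited list of regions found in both libraries, in the layout of the irreproducible discovery rate (IDR) method. The signal value deposited for a region is the sum of its values in the 2 libraries, used only to rank and describe regions within a list. A score derived from the IDR was deposited too, and the deposited −log10 IDR showed that all lists stop at 0.05. Which library column belongs to which replicate is not stated, and 16 columns of summits were not used. Read depth is not given, so no floor could be set.

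Regions on chromosomes 1 to 22, X and Y were joined to RefSeq gene spans (GRCh38.p14) extended by 25 kb, with an overlap of at least 1 bp. A region was shared if it overlapped a region of the same protein in the other condition, and otherwise T3-only or vehicle-only. Promoter windows and gene starts came from the RefSeq promoter table, 1 start per gene, which covers 30 of the 34 members. Shares of regions have exact (Clopper-Pearson) 95% intervals. With 1 list per group no test compared conditions, and no test over the gene list was run. The members, the pathway lists and the comparisons were chosen with earlier results of these data known. Named genes are all 34 members, with values for those with a TRβ region and those with most or fewest BRG1 or PBRM1 regions, up to 6 genes per pathway list by TRβ T3 signal value, and up to 8 promoters. Values of some pathway genes are left out of the text, and the list counts include those genes. For BRG1 and PBRM1 comparisons a few further members were named after their values were seen. In all, 9 alternatives were run. The counting was tested on simulated lists and made 0 errors in 7208 regions. Python 3.11.15, pandas 2.3.3, numpy 2.4.6, scipy 1.17.1 and matplotlib 3.10.9 were used.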

Additional observations from a re-analysis of the deposited data

How the results depend on the processing

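Of 135 repeats (15 results under 9 alternatives each), 117 stayed within their interval or within 1.5 times their count and 18 moved. Members stayed above other genes in the share with a T3 region for all 4 proteins under all 9 alternatives. With T3 and vehicle lists cut to equal length by signal value, TRβ T3 regions lay at 9 members and at 14.03% of other genes. In these lists the TRβ vehicle-only share was 77.8% at members, against 79.6% at other genes. PBRM1 was 59.3% T3-only and 58.8% vehicle-only at members, against 60.1% and 59.4% at other genes. BRG1 and ARID1A each overlapped 100% of the 9 TRβ regions left at members, against 95.4% and 95.9% at other genes. With a reciprocal overlap of 50%, T3-only and vehicle-only shares at members were 49.2% and 53.4% (BRG1), 69.3% and 71.2% (ARID1A regions) and 86.4% and 51.0% (PBRM1 regions). At other genes they were 48.9% and 55.4%, 65.6% and 70.1%, and 86.3% and 44.0%. The TRβ regions overlapping BRG1, ARID1A and PBRM1 were 20.5%, 43.2% and 22.7% at members, against 25.5%, 36.5% and 29.6% at other genes. The PBRM1 share was also lower at members within 25 kb of the gene start, 72.7% against 73.4%. At an IDR of at most 0.01, PBRM1 was 91.7% T3-only and 9.09% vehicle-only at members, against 89.5% and 10.7% at other genes. ARID1A overlapped 87.0% of TRβ regions at members, against 78.2%. A stricter overlap makes fewer regions shared by construction, and the cause of the other moves was not tested. No paired analysis was possible because each group has 1 list that already combines both libraries, and for the same reason no library could be left out, so the intervals of each library alone were used as alternatives.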
